A study of Mus musculus with 2 samples.

Results

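The genes described here were 9 mouse transcription factors of the anterior neural plate and eye field, or of neurons derived from neighbouring territory: Rax, Hesx1, Six3, Six6, Lhx2, Otx2, Zic1, Isl1 and Tal2. They were selected in part on the difference between the 2 arrays described below, so that difference is given as a description and no test was applied to it. Every probe that the array files name for 1 of these genes was read, which gave 12 probes for 9 of the 34650 genes on the array. The array measured RNA of EpiSC and of ELA-EpiSC, both from the mouse embryonic stem (ES) cell line E14Tg2A of strain 129/Ola. ES cells were kept in serum with LIF. EpiSC, a culture model of the post-implantation epiblast, came from ES cells given Activin A at 20 ng/mL together with FGF2 at 12 ng/mL. ELA-EpiSC received the same 2 factors, but came from epiblast-like aggregates (ELA), floating clusters that formed from ES cells in defined medium after serum and LIF were taken away. Each group was 1 array of RNA pooled from 3 experiments on a single cell line, and the precision is limited by the number of arrays. The titles gave the groups, and the molecule field names total RNA for both. The source field instead names an Argonaute immunoprecipitate for the EpiSC sample and total RNA for the ELA-EpiSC sample, both of undifferentiated cells, and that conflict could not be settled from the labels.

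In the embryo, the anterior neural plate forms where Wnt, Nodal and BMP signals are blocked by secreted antagonists from the anterior visceral endoderm and later from the anterior midline tissue. Otx2 and Hesx1 act early in the anterior plate, and within it Rax, Six3, Six6 and Lhx2 mark the eye field, from which the retina grows. Several of these factors have other sites of expression. Otx2 is also a factor of the epiblast itself, Hesx1 is also present in anterior endoderm and the pituitary primordium, and Isl1 in cardiac progenitors as well as in motor and retinal neurons.

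EpiSC and ELA-EpiSC differed strongly in some of the 9 factors and little in others. Rax, Tal2, Hesx1 and Isl1 had high or intermediate signals in EpiSC and were 62.3-, 20.9-, 20.7- and 17.9-fold lower in ELA-EpiSC. Lhx2 was 2.72-fold lower at a low level. Six3, Otx2 and Zic1 differed by less than 1 on the log2 scale, and Six6 was not detected on either array. Of the 9 genes, 8 were detected and 7 reached a mean log2 signal of 7.5 over the 2 arrays, the minimum for counting a gene as compared. Of these 7, 4 were lower in ELA-EpiSC by more than 1, and 0 were higher by more than 1. Among all 16649 compared genes the corresponding shares were 4.41% lower and 4.6% higher. All 4 also passed 2.5, as did 0.649% of all compared genes in the same direction. Because the 9 genes were picked with these values known, the counts are read as a description. Rax, Tal2 and Isl1 lay below 7.5 on the ELA-EpiSC array and reached the minimum through their EpiSC level. The median difference over the 8 detected genes was -2.80, beside -0.003 over all 25851 detected genes. RNA was measured in bulk, so fewer cells with a transcript and less transcript per cell cannot be told apart.

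Both arrays had similar quality: 65.8% of probes were well above background in EpiSC and 65% in ELA-EpiSC, over median local backgrounds of 26 and 25 intensity units. No comparison between the groups has a replicate. The error of a difference was taken from the scatter of replicate spots, with a root mean square SD of 0.10 for a log2 difference over 312 probes printed 10 times, and it covers spot noise but not labelling or culture. Values are normalized log2 intensities, set so that both arrays share 1 distribution, and a difference is ELA-EpiSC minus EpiSC. The 8 detected of 10 spike-in probes were all lower on the ELA-EpiSC array, by 0.53 on average, so scaling to them adds 0.53 to every difference.

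**Figure D1:**
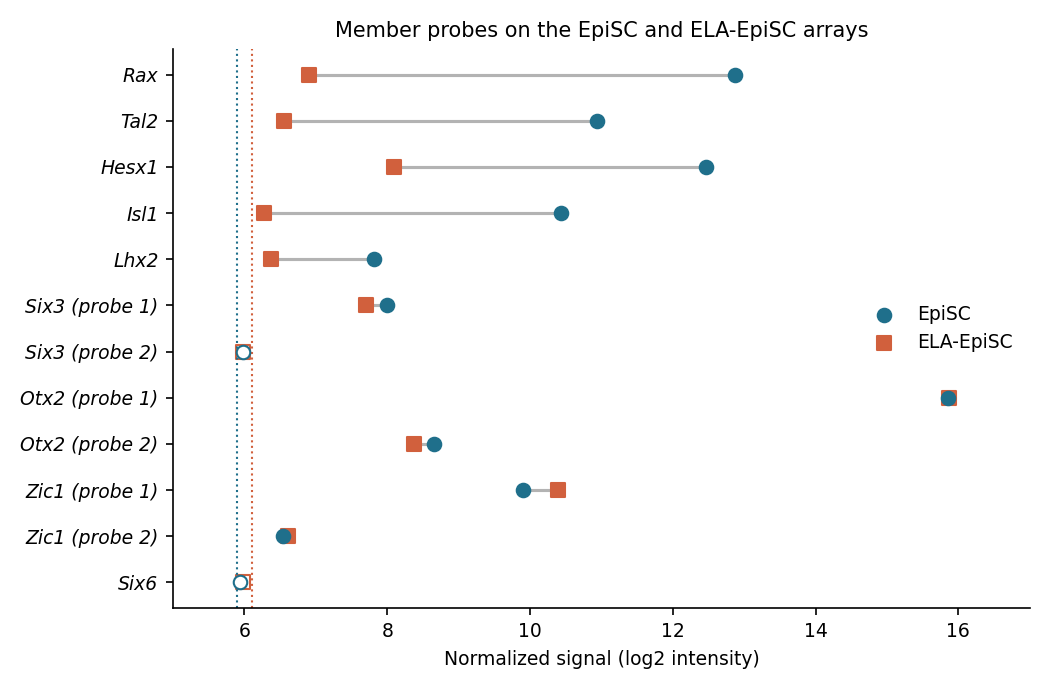
Normalized signal (x axis, log2 intensity) of each of the 12 probes (y axis, by gene) in EpiSC (circles) and ELA-EpiSC (squares), 1 array each. Open symbols are probes not above background, and the dotted lines are the lowest detected signals of the EpiSC array (5.89) and the ELA-EpiSC array (6.11). Rax, Tal2, Hesx1 and Isl1 have the longest connecting lines, and the Otx2 symbols of the brighter probe coincide.

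Rax, a homeobox factor required for the eye field to form, was read by 1 probe, on chromosome 18 at 66094331 to 66094390 (mm9). Its raw spot signal was 6869 intensity units in EpiSC and 94.2 in ELA-EpiSC, over local backgrounds of 31 and 27. The probe was above background on both arrays, so a residual signal was measured in ELA-EpiSC. On the normalized scale the levels were 12.87 and 6.91, a difference of -5.96. With the reported processing, 0 of the 16649 compared genes lay below it. The processed signal of the scanner software, which has background subtracted and no offset, was 6151 ± 615 in EpiSC and 57.1 ± 6.12 in ELA-EpiSC (error estimate of the software for 1 spot), a ratio of 108. The normalized values carry an offset of 50 added before the log was taken, and with an offset of 0 the difference was -6.73.

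The other eye-field genes did not share the size of this difference. Six3, a sine oculis-type homeobox factor that represses Wnt signalling in the forebrain, had raw signals of 199 in EpiSC and 185 in ELA-EpiSC by its brighter probe. The normalized levels were 7.99 and 7.70, a difference of -0.29, which scaling to the spike-in probes turned to 0.24. The second Six3 probe was not above background on either array, with raw signals of 30.9 and 28.0. Six3 was thus low in both cultures. The antisense transcript Six3os1 had 3 probes, of which 1 was detected, at 7.73 in EpiSC and 6.52 in ELA-EpiSC. Six6, a related factor of the retina and pituitary, gave raw signals of 30.2 and 29.8 over backgrounds of 27 and 25, so no Six6 RNA was detectable with this probe in either culture. Lhx2, a LIM-homeobox factor needed for optic vesicle growth, gave 179 raw units in EpiSC and 51.0 in ELA-EpiSC. Its normalized levels of 7.81 and 6.37 differed by -1.45, and the processed ratio was 6.59. The mean level of Lhx2 was 7.09, below the minimum, so it was left out of the count. Scaling to the spike-in probes brought its difference to -0.92.

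Otx2, Hesx1 and Zic1, which act more broadly in the anterior ectoderm, went separate ways. Otx2, a homeobox factor of the epiblast and of the forebrain and midbrain, was among the bright probes of both arrays, with raw signals of 59720 in EpiSC and 59330 in ELA-EpiSC. The spots were not flagged as saturated, though they lie near the top of the scanner's range. The normalized levels of 15.85 and 15.88 differed by 0.02, within the spot scatter. This sign turned in 5 of 13 alternatives, over a range of -0.31 to 0.55. A second Otx2 probe, annotated to another transcript model, was dimmer and read 8.65 and 8.38, a difference of -0.28. Neither probe passed 1. Hesx1, a paired-like homeobox repressor of the anterior plate, had raw signals of 5110 in EpiSC and 258 in ELA-EpiSC, far above the backgrounds of 24 and 22. The normalized levels were 12.46 and 8.09, a difference of -4.37, and the processed ratio of 21.45 was close to the normalized fold of 20.7. The probe lies on chromosome 14 at 27815304 to 27815363 (mm9). Hesx1 ranked 10 from the lowest difference among the compared genes. Zic1, a zinc-finger factor of the neural plate border, had raw signals of 832 in EpiSC and 1464 in ELA-EpiSC by its brighter probe. The normalized levels of 9.90 and 10.40 differed by 0.49, the opposite direction from Rax and Hesx1 and above the spot scatter of 0.10. Its second probe was near background, with 6.54 and 6.61. Zic1 passed 1 only after scaling to the spike-in probes, at 1.02.

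Isl1 and Tal2 are factors of differentiating cells rather than of the early plate. Isl1, a LIM-homeobox factor of motor neurons, retinal ganglion cells and cardiac progenitors, was printed as 10 replicate spots and therefore carries its own technical error. The raw signal of the 10 spots ran from 1014 through a median of 1269 to 1347 in EpiSC, and from 36.6 through 46.2 to 53.0 in ELA-EpiSC. The spots of the 2 arrays did not overlap. On the normalized scale the means were 10.44 ± 0.13 and 6.27 ± 0.07 (SD, 10 spots), and the difference was -4.16 ± 0.12, between -4.31 and -3.93 for single spot positions. In EpiSC 10 of 10 spots were above background, against 8 of 10 in ELA-EpiSC. The ELA-EpiSC signal was thus close to the detection limit, and the processed ratio of 79.5 was larger than the normalized fold of 17.9. Tal2, a basic helix-loop-helix factor needed for GABAergic neurons of the midbrain, had raw signals of 1735 in EpiSC and 57.2 in ELA-EpiSC. The normalized levels of 10.93 and 6.55 differed by -4.39, and the processed ratio was 73.5. Tal2 and Isl1 ranked 9 and 13 from the lowest difference. Their probes lie on chromosome 4 at 53799664 to 53799723 and on chromosome 13 at 117088774 to 117088833 (mm9).

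**Figure D2:**
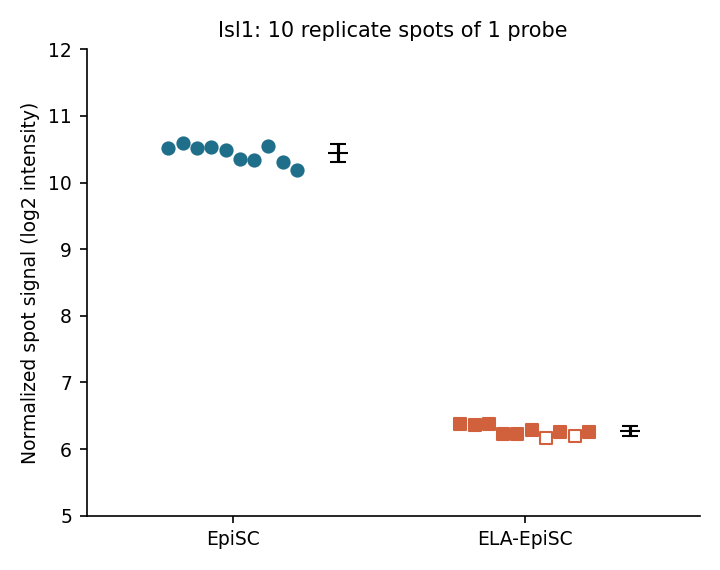
Normalized log2 intensity (y axis) of the 10 replicate spots of the Isl1 probe on the EpiSC array (circles) and the ELA-EpiSC array (squares), with their mean and SD in black. Open squares are the spots not above background, and the spots of the 2 arrays are separated by more than 3 log2 units.

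**Figure D3:**
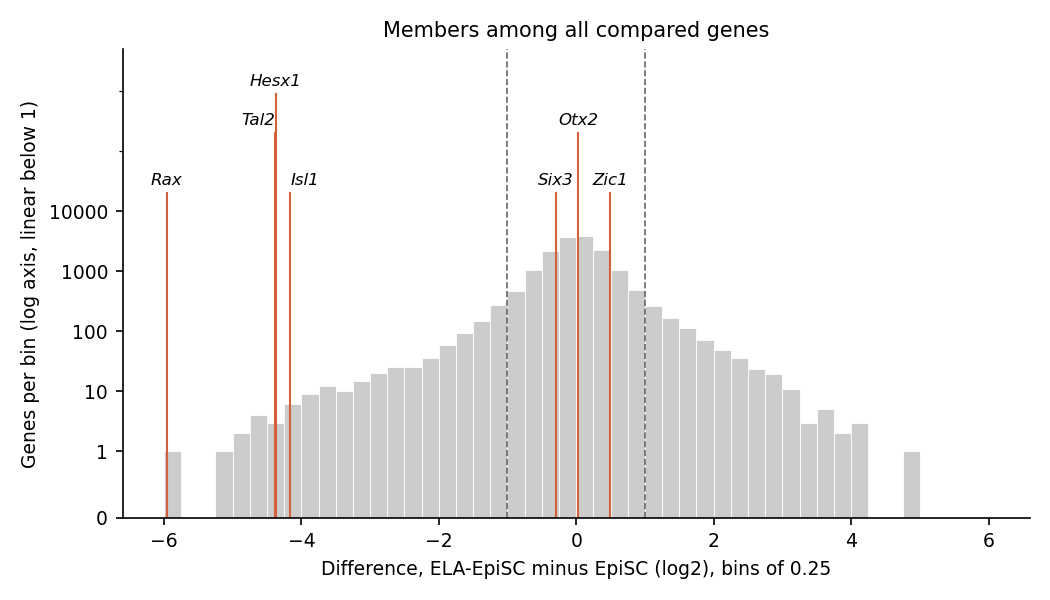
Number of genes (y axis, log scale above 1) by difference, ELA-EpiSC minus EpiSC (x axis, log2, bins of 0.25), for the 16649 compared genes in grey. Red lines place the 7 compared factors and dashed lines mark -1 and 1. Rax lies at the lower end of all genes under the reported processing, Tal2, Hesx1 and Isl1 in the sparse lower tail, and Six3, Otx2 and Zic1 in the central part.

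The central 95% of compared genes lay between -1.31 and 1.37, and the median absolute difference was 0.28. Six3, Otx2 and Zic1 fell inside this range, and the other 4 compared factors fell far below it. For each of these 4, the genes nearest in level on both arrays were listed among 12742 detected genes with a symbol, by the distance over the 2 log2 values. Hnf4a (distance 0.77), a nuclear receptor of visceral endoderm and liver, and the imprinted RNA H19 (1.29) lay nearest to Rax. Hnf4a read 12.78 in EpiSC and 7.67 in ELA-EpiSC. Ambp (0.31), a plasma protein of liver and yolk sac endoderm, and Akr1c19 (0.36) lay nearest to Tal2. Ajap1 (0.37) and Pilra (0.40) lay nearest to Hesx1, and 4933402E13Rik (0.27) and Stfa1 (0.30) to Isl1. With only 2 arrays such likeness is a likeness of 2 numbers.

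The sequences before the gene starts are printed for the lowered factors Hesx1, Isl1 and Tal2, and for Otx2 as the bright gene that hardly differed, so that the letters around each start can be compared. They are the 250 bases before a RefSeq start (assembly GRCm38.p6), 5′ to 3′ on the gene's strand, and for Otx2 the most upstream of 4 listed starts. Of the 9 genes, 8 matched the promoter table by symbol, all but Rax. Capitals mark any of 3 searched motifs, read on both strands: TAATCC for OTX factors, TAATTA for LIM and paired-type homeodomains, and CTTTGT for SOX factors. TAATCC and TAATTA begin with the same letters, TAAT, and CTTTGT shares no such run with them.
Hesx1, chr14:27000112-27000361, plus strand: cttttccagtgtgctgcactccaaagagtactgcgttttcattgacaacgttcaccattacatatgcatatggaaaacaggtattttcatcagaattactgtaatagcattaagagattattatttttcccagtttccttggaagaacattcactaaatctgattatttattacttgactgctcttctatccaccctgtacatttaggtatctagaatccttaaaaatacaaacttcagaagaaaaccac
Isl1, chr13:116309689-116309938, minus strand: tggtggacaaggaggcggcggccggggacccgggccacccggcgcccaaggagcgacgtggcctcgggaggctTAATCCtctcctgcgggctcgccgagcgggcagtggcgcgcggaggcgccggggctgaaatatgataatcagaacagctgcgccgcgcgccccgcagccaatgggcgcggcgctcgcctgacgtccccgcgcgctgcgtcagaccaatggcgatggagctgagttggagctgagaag
Tal2, chr4:53779451-53779700, plus strand: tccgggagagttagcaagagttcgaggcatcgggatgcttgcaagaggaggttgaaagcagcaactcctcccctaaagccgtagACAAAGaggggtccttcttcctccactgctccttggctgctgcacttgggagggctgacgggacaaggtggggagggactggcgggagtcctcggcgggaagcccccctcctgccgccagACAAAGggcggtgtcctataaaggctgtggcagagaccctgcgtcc
Otx2, chr14:48667645-48667894, minus strand: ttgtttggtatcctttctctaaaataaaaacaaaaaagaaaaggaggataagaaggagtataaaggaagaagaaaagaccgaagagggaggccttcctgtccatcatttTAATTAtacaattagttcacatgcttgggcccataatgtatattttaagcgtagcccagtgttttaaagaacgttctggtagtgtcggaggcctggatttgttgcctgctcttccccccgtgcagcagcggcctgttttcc

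The Isl1 sequence held TAATCC at 177 bases before the start, and the Tal2 sequence held the reverse complement of CTTTGT at 166 and at 46 bases. The printed Otx2 sequence held TAATTA at 141 bases, and the Hesx1 sequence held no match to the 3 motifs. Over all listed starts of the 8 genes, TAATCC was present for 2 (Otx2 and Isl1), TAATTA for 1 (Otx2) and CTTTGT for 1 (Tal2). The shares among 27025 genes were 7.21%, 5.65% and 18.6%. No motif was shared by Hesx1, Isl1 and Tal2, and a match is a run of letters and not a measured site.

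Genes on the chromosome beside the factors differed little between the arrays. Within 250 kb of their probes (mm9), 27 compared genes had a median difference of 0.08, with 1 lower and 1 higher by more than 1. The higher one was Il17rd, which encodes an inhibitor of FGF signalling, 105 kb from Hesx1 (13.85 and 15.05). Around Rax, Lman1 differed by -0.19 (positive with spike-in scaling) and Sec11c by -0.75, and Oacyl and Zfp532 by 0.13 and 0.17. Six2, which lies 57 kb from Six3, differed by 0.83. The probes of the 9 genes shared at most 35 of 60 bases (58.3%, ungapped) with a probe of another gene, a value reached by Six3.

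Related genes were read from lists written for this purpose with earlier results of these data in view, and a gene can stand in more than 1 list. Among 13 further genes of the eye field and retina, 3 were compared, 0 were lower and 1 was higher by more than 1, with a median of -0.04. Mitf, the master factor of pigment cells and pigmented retina, read 7.67 in EpiSC against 9.03 in ELA-EpiSC, which is 1.37 higher. Nr2e1, a nuclear receptor of neural stem cells, differed by -0.53, and Vax2, a factor of the ventral retina, by -0.04, a sign that median and spike-in scaling turned. Pax6 and Foxd1 were not detected on either array. Another 7 lay below the minimum mean, among them Tbx2, a T-box factor of the optic cup, at 8.26 in EpiSC and 6.48 in ELA-EpiSC (-1.78). Thus most of the listed eye-field genes were low or undetected in both cultures.

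Of 21 genes of the anterior neural plate and forebrain, 5 were compared and 10 were not detected. Irx3, a homeobox factor of the neural plate, was lower by more than 1 (-1.26), and Zic2 (1.68) and Zic5 (1.14) were higher. Sp8, a zinc-finger factor of the anterior neural ridge, differed by 0.58, and the median was 0.58. Nkx2-1, Emx1 and Otx1 were not detected on either array. Of 15 midbrain, hindbrain and posterior neural genes, 4 were compared, with 0 lower and 2 higher by more than 1. Egr2, a zinc-finger factor of the hindbrain, was higher by 1.36, En2 differed by -0.29 and Wnt1 by -0.08. Both of the latter turned positive with spike-in scaling, and Wnt1 also with scaling to the median. Among 21 paralogues of the 9 factors, 9 were compared, with 1 lower and 2 higher (Zic2 and Zic5) by more than 1, and a median of 0.43. In the ZIC family Zic1, Zic2 and Zic5 were higher in ELA-EpiSC under all 13 alternatives, and Zic4 was not detected.

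Antagonists of signalling that shape anterior identity, not all of them secreted, were divided. All 12 were compared, with 4 lower and 1 higher by more than 1 and a median of 0.15. Sfrp5, a secreted Wnt-binding protein of anterior endoderm, read 14.95 in EpiSC and 10.41 in ELA-EpiSC. Its difference of -4.55 lay between those of Rax and Tal2. Shisa2, which restrains Wnt and FGF receptors, differed by -2.33 and Sfrp1 by -2.14, and the fourth lower gene was Frzb, at -1.05. Fst, which encodes the Activin inhibitor follistatin, was higher by 2.40. Among 7 genes of the anterior visceral endoderm, 1 was lower and 0 were higher by more than 1. Hhex differed by -1.72, whereas Dkk1 (0.87), Gsc (0.56) and Lefty1 (0.51) were higher by less than 1. The median was 0.04.

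Markers of the cell types that the cultures could hold were read beside these results. The epiblast list of 9 genes was compared in full, with 0 lower and 2 higher by more than 1, a median of 0.32, and a summed linear signal of 251000 in EpiSC and 241900 in ELA-EpiSC. A linear sum is weighted to the brightest genes, here Dnmt3b at 17.07 and 16.25, whereas 7 of the 9 genes were higher in ELA-EpiSC. Pou3f1 (1.47), Cdh2 (1.17) and Foxd3 (0.85) were higher and Dnmt3b was lower (-0.82). Fgf5, a marker of the primed epiblast, read 15.18 and 15.35, and Pou5f1, a general pluripotency factor, 14.27 and 14.47, so both were bright in both cultures. The pan-neural list had 10 of 16 genes compared, with 0 lower and 1 higher by more than 1, a median of 0.10, and sums of 21660 and 40820. Nes, an intermediate filament of neural progenitors, differed by 2.12, Tubb3 by 0.72, Ncam1 by -0.56 (0.13 for its second probe) and Hes5 by -0.95. Nes, at 12.26 in EpiSC and 14.38 in ELA-EpiSC, was the brightest gene of this list in ELA-EpiSC and weighs most in that sum. Sox1, the earliest neural marker of the list, read 8.31 and 8.23, a difference whose sign turned in 3 alternatives, and Pax6, Pou3f2 and Pou3f3 were not detected. With the reported processing, no gene of this neural list was lower by more than 1, unlike Rax and Hesx1. Hes5 was near that threshold and ran from -1.32 to -0.42 over 13 alternatives.

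Part of the endoderm and cardiac markers was lower in ELA-EpiSC, as the 4 lowered factors were. Of 14 endoderm genes, 10 were compared, with 5 lower and 0 higher by more than 1, a median of -1.65, and a summed signal of 61500 in EpiSC and 33000 in ELA-EpiSC. Hnf4a differed by -5.11, Ambp by -4.53, Amn by -2.75 and Gata4 by -2.39. Ttr, the transthyretin gene, was above background in EpiSC only and was at least 10.69-fold higher there. Sox17 (-0.92) and Foxa2 (-0.43, positive with spike-in scaling) differed less, and Dab2 (0.21) and Cubn (0.11), which encode endocytic proteins of visceral endoderm, were slightly higher. Below the minimum mean, Sox7 (0.74), Apob (0.55) and Afp (0.21) were higher, and Apoa1 was above background in EpiSC only. Of 7 cardiac progenitor genes, 4 were compared, with 3 lower and 0 higher by more than 1, a median of -2.60, and sums of 3232 and 515. Tbx1 differed by -3.52, Tbx20 by -2.95, Nkx2-5 by -2.24 and Hand1 by -0.56, while Tbx5 and Mef2c were not detected. Hand1 had a second probe at 0.22. The blood progenitor list had 4 of 6 genes compared, with Gata1 lower (-3.71) and Lmo2 higher (1.12), a median of -0.23, and sums of 10030 and 6722. Kdr (-0.43) and Runx1 (-0.04) had further probes of the opposite sign, at 1.49 and 0.42, so the Kdr probes disagreed by more than the threshold. Tal1 was near background at 6.34 and 6.38. The motor and sensory neuron list had 3 of 8 genes compared, with 0 lower and 1 higher, Slc18a3 at 1.55, and a median of 0.77. Phox2a differed by 0.77 and Pou4f1 by 0.29, and the sums were 1646 and 2947. None of the 3 compared genes of this list shared the direction of Isl1. Below the minimum mean, Lhx3 (-0.20) and Mnx1 (-0.13) were slightly lower, and Lhx4 (0.07) and Chat (0.41) were higher. Mnx1 was near background, and above it in EpiSC only. The part of endoderm and cardiac RNA in the values of Rax, Hesx1, Isl1 and Tal2 was not tested.

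**Figure D4:**
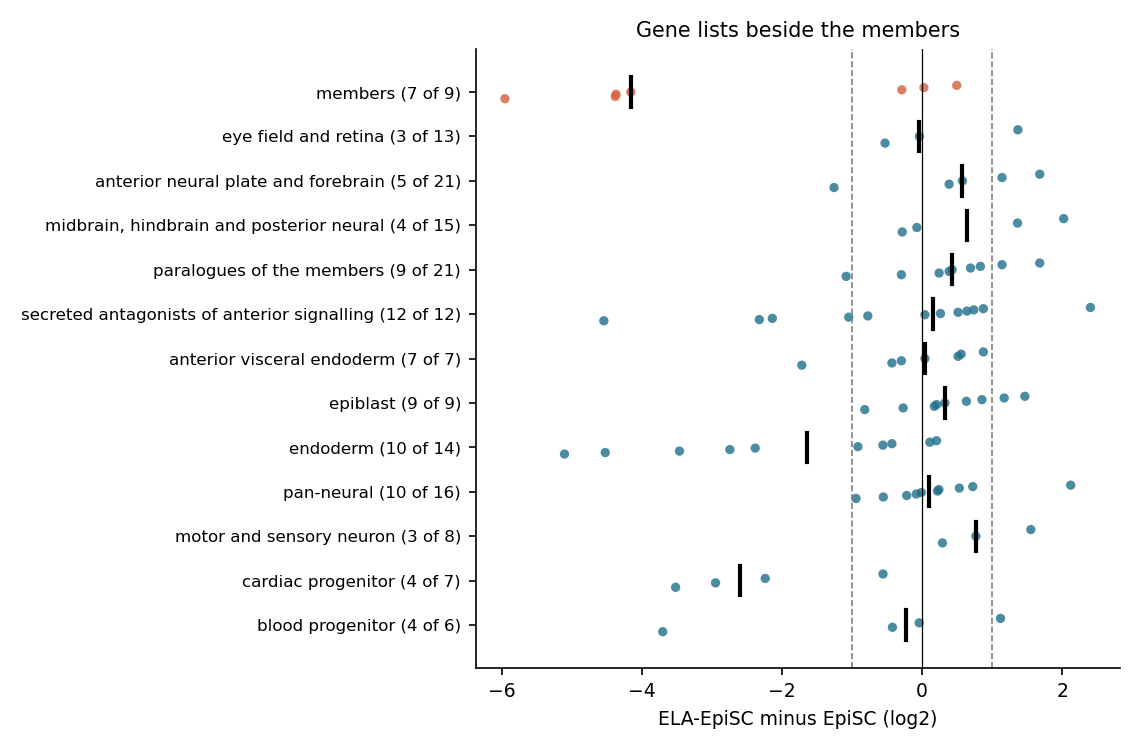
Difference, ELA-EpiSC minus EpiSC (x axis, log2), of each compared gene in the 9 factors (red, top) and in 12 gene lists (blue), with the number compared of the number listed. Black bars are medians and dashed lines mark -1 and 1. Endoderm, with a median of -1.65, and cardiac progenitor genes, with -2.60, lie to the left as 4 of the 7 compared factors do, and the neural lists lie around or above 0.

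Under 13 other ways of computing the values, Rax, Hesx1, Tal2 and Isl1 were lower in ELA-EpiSC by more than 1 in each. The difference of Rax ran from -7.07 to -5.43, of Hesx1 from -4.74 to -3.84, of Tal2 from -6.52 to -3.86, and of Isl1 from -6.66 to -3.63. The most negative values of Tal2 and Isl1 came from the processed signal, which differs from the reported values in background handling, offset and scaling together. With an offset of 0 alone they were -5.45 and -5.62. The Hesx1 range was the narrowest of the 4, and Hesx1 was also the brightest of them in ELA-EpiSC.

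**Figure D5:**
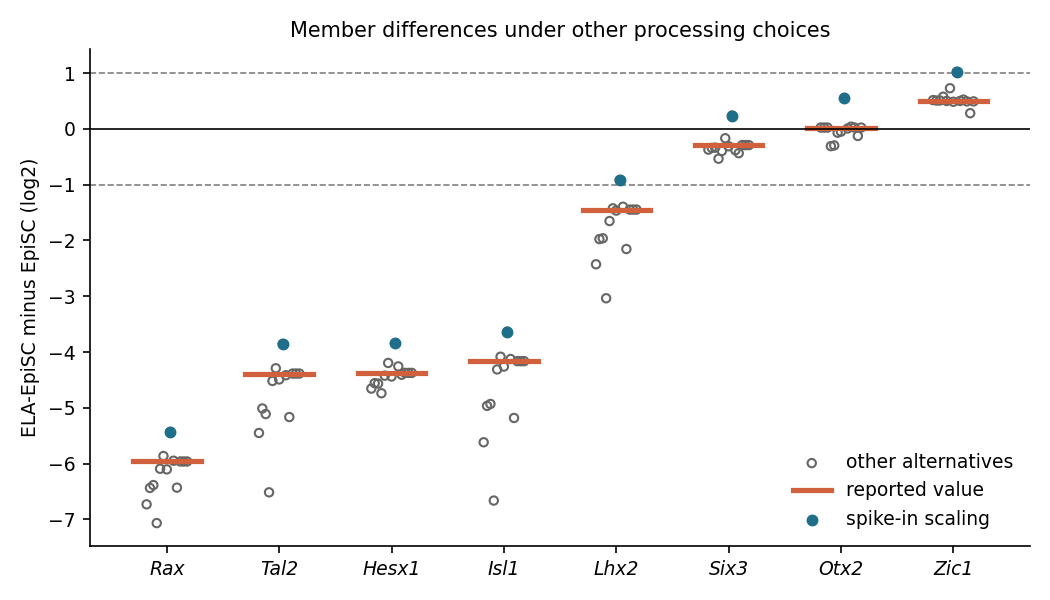
Difference, ELA-EpiSC minus EpiSC (y axis, log2), of the 8 detected factors (x axis) under the reported processing (red bars), under 12 alternatives (open circles) and under spike-in scaling (blue). Dashed lines mark -1 and 1. Rax, Tal2, Hesx1 and Isl1 stay below -1 throughout, Lhx2 crosses -1 under spike-in scaling only, and Six3, Otx2 and Zic1 lie between -0.53 and 1.02.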

How the data were processed

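RNA of EpiSC and ELA-EpiSC was hybridized to 1 one-colour mouse array each. Per the labels, RNA was pooled from 3 experiments and 50 ng was labelled with Cy3. The deposited scanner files give a linear, unnormalized intensity for each spot and were made with Feature Extraction 10.7.3.1 per the file headers, whereas the submitters' processing notes name version 9.1. Probe coordinates are those of mm9. The authors also deposited log2 values that were background-corrected and quantile normalized with limma, used here as an alternative. Other deposited columns, such as spot flags, gene names and a software-processed intensity, were read as given.

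Mean spot signal was corrected with normexp (offset 50, all spots), log2 was taken, and the log2 values were quantile normalized in limma 3.58.1 under R 4.3.3. The 158 EpiSC and 117 ELA-EpiSC spots marked as outliers were then dropped, and spots were averaged per probe. The offset compresses dim differences, and quantile normalization hides a shift shared by all genes. A probe was detected if a share of 0.5 or more of its spots had the software's above-background flag, and a gene took its brightest detected probe. Genes whose mean log2 reached 7.5 were compared, with thresholds of 1 and 2.5. Code was tested on simulated data. With 1 array per group no p-value exists. Exon and UTR annotation of probes was not used here.

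The named genes were the 9 factors, the 4 genes of each of 12 lists with the largest absolute difference, and the 2 genes nearest in level to each factor past 1. Some genes that this rule names are not reported here. Genes named beyond this rule were chosen after their values were seen. The factors and lists were chosen with earlier results of these data known. Motifs were searched with pandas 2.3.3.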

Additional observations from a re-analysis of the deposited data

How the results depend on the processing

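The 15 alternatives changed background correction, scaling, signal column, source of values, spot flags, probe summary, filters or threshold, 1 at a time except that the processed signal also brings its own background correction and scaling. The number of factors lower by more than 1 was 4 in all of them except without a minimum mean, where Lhx2 made it 5. The number higher by more than 1 was 0 except under spike-in scaling, where Zic1 made it 1. Where a minimum mean was used, the genes reaching 7.5 were those of the reported processing, and the filter was not applied anew. These counts therefore do not show whether a factor would cross that minimum under another processing. The median difference of the detected factors was -2.80. It was -3.54 with an offset of 0, -3.27 with an offset of 16, -3.26 without background correction, -3.89 with the processed signal, -2.98 with the 75th percentile after normexp, -2.27 with spike-in scaling and -3.28 with the deposited values. With a minimum mean of 7.5, an alternative added after seeing the data, it was -4.16, since fewer genes enter. Spike-in scaling moved the median of all compared genes to 0.54, and scaling to the median moved it to 0.15. Of 44 genes with the largest differences in the lists, 39 kept their sign in all alternatives; the exceptions were Vax2, En2, Wnt1, Kdr and Runx1. No paired analysis was possible because neither group held more than 1 array, and for the same reason no replicate could be left out. Signals near background limit the folds of Rax, Tal2, Isl1 and Lhx2 in ELA-EpiSC.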
